A study of Saccharomyces cerevisiae with 12 samples.

Results

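The genes described here encode the subunits of the nuclear RNA polymerases of *Saccharomyces cerevisiae*, RNA polymerases I, II and III (Pol I, Pol II and Pol III). They were chosen by systematic identifier, a rule that uses no measured value, and comprise 31 of the 6600 features of the count table. Of these, 7 belong to Pol II alone, 7 to Pol I alone and 10 to Pol III alone, while 2 are shared by Pol I and Pol III and 5 are common to all 3 enzymes. All 31 passed the filter on low values and were among the 5903 genes tested.

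The series measured polyadenylated RNA of strain BY4741, a haploid MATa laboratory strain, after 20 h at 30 °C in diluted YPD. PeAfpA is a small antifungal protein of the mould *Penicillium expansum*, present from the start at concentrations below those that inhibit this yeast. Groups were the control without PeAfpA (libraries 1A, 1B and 1C) and PeAfpA at 1 µg/mL (2A, 2B and 2C), at 2 µg/mL (3A, 3B and 3C) and at 4 µg/mL (4A, 4B and 4C), each with 3 flask cultures. All 4 groups share the strain and its deleted marker genes, and nothing else was varied. The labels call the source mycelia, although it is a yeast culture. Levels are relative to the mRNA of a whole culture, so that more RNA per cell and more cells of a kind cannot be told apart.

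Totals lay between 7153797 and 10270183 counts per library. Libraries 4C and 2A stood apart in their scaling factors (TMM), with 0.81 and 0.85, against 0.99 to 1.12 in the other libraries. LEU2, URA3 and MET17, which BY4741 lacks, had 0 counts in every library. HIS3, of which BY4741 carries a partial deletion, had 381 to 649 counts. The a-cell gene STE2 had 855 to 4740 counts, against 94 to 299 for the alpha-cell gene STE3. Counts of single members lay between 134 and 3935 per library. No member had a near-identical copy in the genome, and RPA14 alone shared bases with another annotated gene (8 bases, with YDR157W). The 683 features without a position in the annotation could not be checked for overlap.

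Each of these enzymes has a core built from a pair of large subunits that form the active site, a pair of alpha-like subunits on which the core is assembled, 5 small subunits common to all, and a stalk that binds the emerging RNA. Pol I transcribes the large ribosomal RNA precursor, Pol II transcribes messenger RNAs, and Pol III transcribes transfer RNAs and other short RNAs. In growing yeast Pol I and Pol III supply mainly RNAs used in making proteins, and both are slowed when nutrients run out. A short DNA word upstream of many Pol I and Pol III subunit genes, the PAC element (named for polymerases A and C, older names of Pol I and Pol III), is bound by the repressors Dot6 and Tod6. It often occurs beside a further word, the RRPE element, which is bound by Stb3.

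Of the 2 upstream words searched, PAC was found before most Pol I and Pol III genes and before no Pol II or common gene. Windows of 30 bases around it are shown because both genes that rose and genes that were not called hold it. The PAC core GATGAG was searched on both strands in the 250 bases before each start codon of the R64 assembly of strain S288C. It was found before 6 of 7 Pol I genes (not RPA12), both genes shared by Pol I and Pol III and 8 of 10 Pol III genes (not RPC17 and RPC11), but before 0 of 7 Pol II genes and 0 of 5 common genes. Over all 5656 protein-coding genes tested the share was 16.4%. In the windows below, which run 5′ to 3′ on the strand of the gene, capitals mark GATGAG or its reverse complement CTCATC.
RPA190, chrXV:960803-960832, plus strand: tttatttcaaatCTCATCtcatctcttaaa
RPA135, chrXVI:581288-581317, minus strand: gcatcttagagaCTCATCtcatctcttaat
RPA34, chrX:140315-140344, plus strand: aaaaattttatcGATGAGcattgaatagct
RPC40, chrXVI:746901-746930, minus strand: aaaaattattgcGATGAGttgaaagaaaaa
RET1, chrXV:733569-733598, minus strand: ttgtaattgtgaGATGAGctgaaaattttt
RPO31, chrXV:544226-544255, minus strand: taaatttttaaaCTCATCactggttggtta
RPC82, chrXVI:919146-919175, minus strand: atttttcaaaagCTCATCgcattgaaggaa
RPC34, chrXIV:635341-635370, minus strand: atgtatttgtgaGATGAGatcattacagaa
The first 5 of these genes rose at 4 µg/mL and the last 3, all of Pol III, were not called. In total 11 members with PAC were not called. Those not printed are RPA49, RPA43, RPA14, RPC19, RPC31, RPC53, RPC37 and RPC25. RPA190 and RPA135, the 2 large subunits of Pol I, hold the same arrangement, with a further copy in lower case that shares 1 base with the marked one, and start 172 and 109 bases before the start codon. The RRPE core AAAATTTT, which is its own reverse complement, was found before 6 of 7 Pol I genes (not RPA12), RPC40, 5 of 10 Pol III genes, 2 of 7 Pol II genes (RPO21 and RPB9) and 2 of 5 common genes (RPB5 and RPO26), and before 8.96% of all genes. No PAC match overlapped an RRPE match in these genes, although in RPA34 and RET1 they lie side by side in the printed window. A match is a description of the letters only.

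In control cultures the common subunits were the most evenly expressed set per length. Their mean levels lay between 176 RPKM (RPB5) and 294 RPKM (RPO26), a 1.66-fold range, where RPKM is the TMM-scaled count divided by library size and exonic length. Levels ranged 4.22-fold within Pol II, between 49.7 RPKM for RPO21 and 209 RPKM for RPB11, and 5.05-fold within Pol I, between 30.1 RPKM for RPA190 and 152 RPKM for RPA14. Within Pol III they ranged 4.58-fold, between 30.9 RPKM for RET1 and 142 RPKM for RPC37. The median over the 31 members was 107 RPKM, against 62.2 RPKM over all 5656 genes tested with a length. The lowest RPKM in Pol I, Pol II and Pol III each belonged to a large catalytic subunit (RPA190, RPO21 and RET1).

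At 4 µg/mL PeAfpA, 15 of the 31 subunit genes rose and 0 fell relative to the control, where a call is an adjusted p under 0.05 in edgeR's quasi-likelihood test. Among all 5903 genes 19.3% were called higher and 23.0% lower. In 16 of the 31 all 4 µg/mL libraries lay above all controls, against 27.5% of all genes, and in 0 all lay below, against 31.7% of all genes. An unadjusted p under 0.05 was found for 17 members and 51.3% of all genes. The genes that rose were all 5 common subunits, 4 of 7 Pol I subunits, 4 of 7 Pol II subunits, 1 of the 2 subunits shared by Pol I and Pol III, and 1 of 10 Pol III subunits. The median log2 fold change was 0.65 for the common subunits, 0.60 for Pol II, 0.51 for Pol I and -0.03 for Pol III, against -0.04 for all genes. The Pol III median lay on the other side of 0 with DESeq2, RLE factors and limma-voom and without 1B (0.01 in each), and at -0.22 with library size alone. Pol III genes had 4 positive and 6 negative values, whereas the 21 other members had positive values in this fit, of which RPB7, RPA49, RPA14 and RPC19 turned negative with library size alone. No test of the difference between the enzymes was made.

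**Figure D1:**
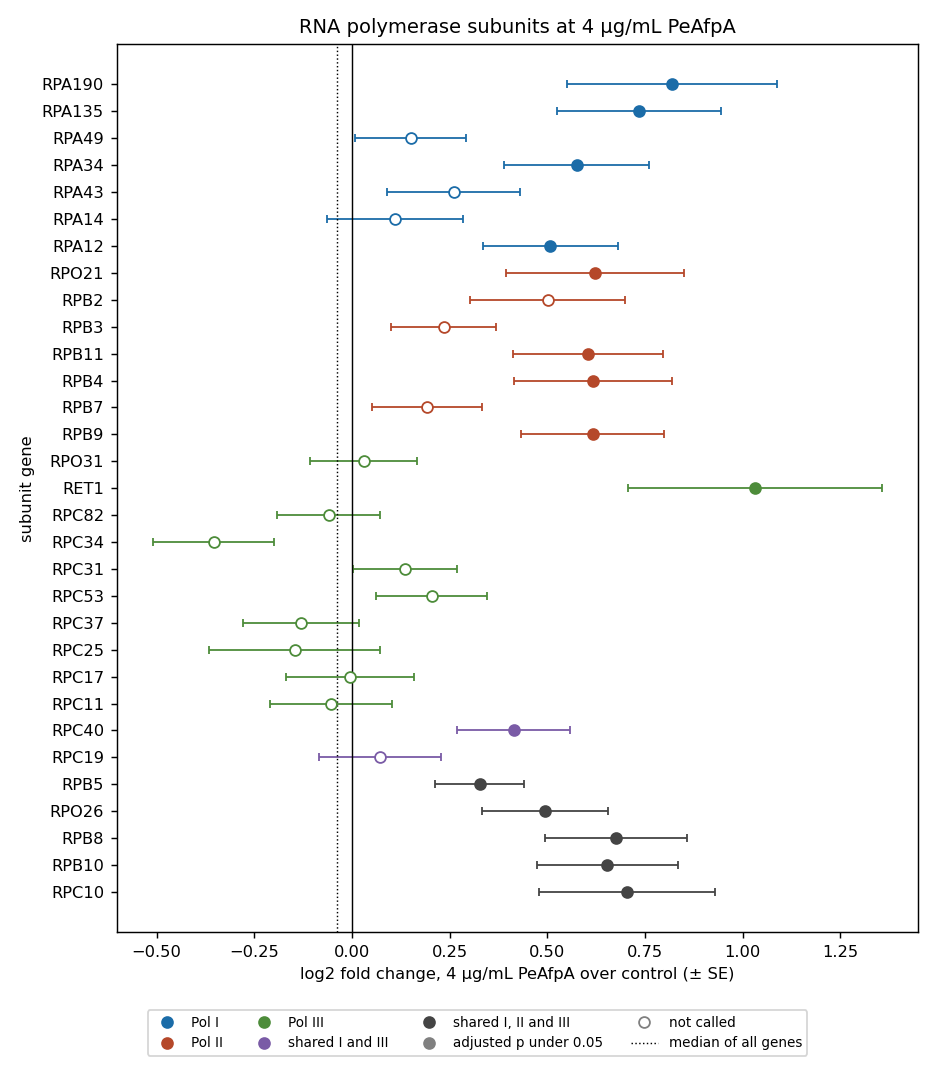
Log2 fold change of each subunit gene at 4 µg/mL PeAfpA over control with its standard error (horizontal axis), one gene per row and coloured by enzyme. Filled circles are genes with an adjusted p under 0.05, and the dotted line is the median of all genes tested (-0.04). The 15 filled circles lie between 0.33 and 1.03, and of the 10 Pol III genes only RET1 is filled.

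The number of calls depended on single libraries. Without 4C, 3 members were called (RPB9, RPB8 and RPB10), which is 9.68% of the 31 against 11.2% of all genes called higher in the same fit. Without control 1C the same 3 genes were called, against 11.6% of all genes. Without 1A the 5 genes RPA190, RPA135, RPA34, RPC40 and RET1 were called, and without 1B the 6 genes RPB11, RPB4, RPB9, RPO26, RPB8 and RPB10, against 14.3% and 13.0% of all genes called higher. Scaling by library size alone moved the median of all genes to -0.23 and left 4 members called (RPB10, RPA190, RPA135 and RET1), which is 12.9% against 12.8% of all genes called higher. The difference between the median of the members and that of all genes was 0.37 in the main fit, 0.27 without 4C and 0.35 with library size alone. The 3 cultures at 4 µg/mL differed, since 4A was the lowest and, except for RPB9, 4C the highest of the 3 libraries in the genes that rose. Their median ratio to the control mean was 1.21 in 4A, 1.47 in 4B and 1.93 in 4C.

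**Figure D2:**
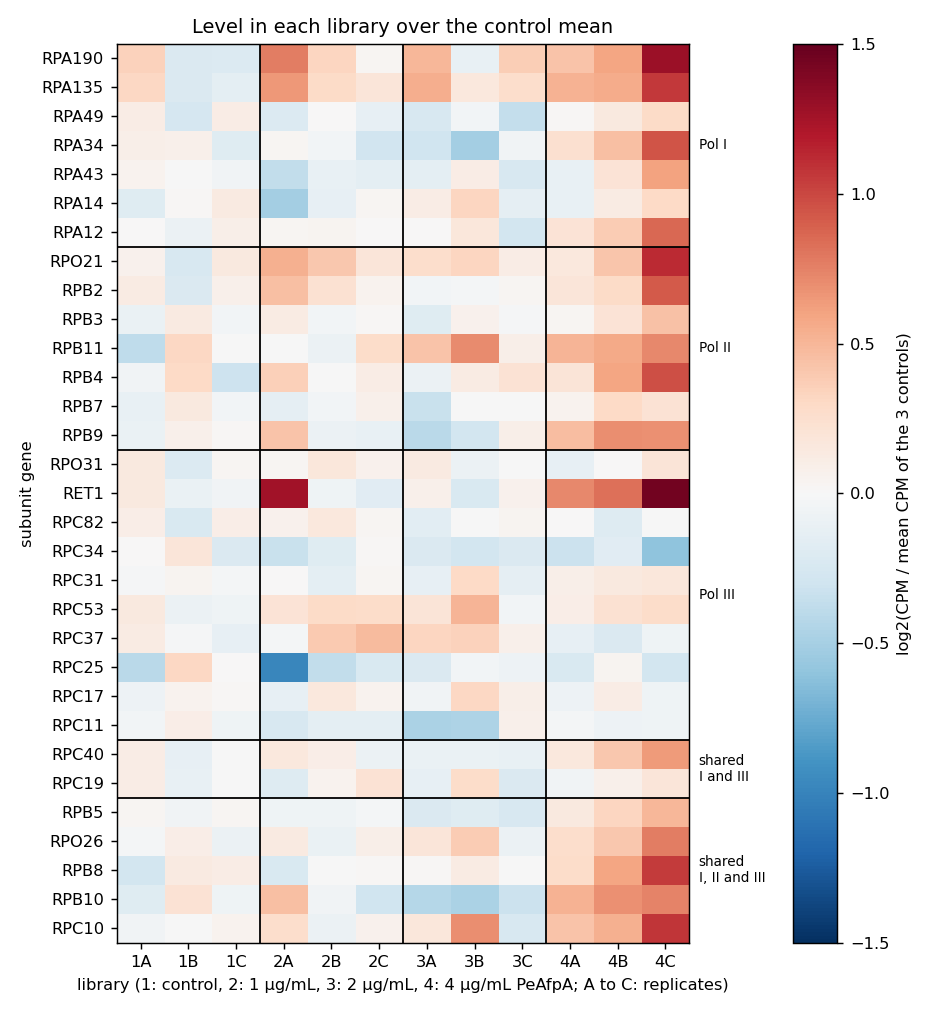
Heat map of log2(CPM / mean CPM of the 3 controls) for the 31 genes (rows, grouped by enzyme) in the 12 libraries (columns, by rising dose). Red is above and blue below the control mean. Column 4C is the reddest, with 19 of the 31 genes at their highest level there, and RET1 and RPC25 stand out in 2A at 2.40 and 0.51 times the control mean.

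**Figure D3:**
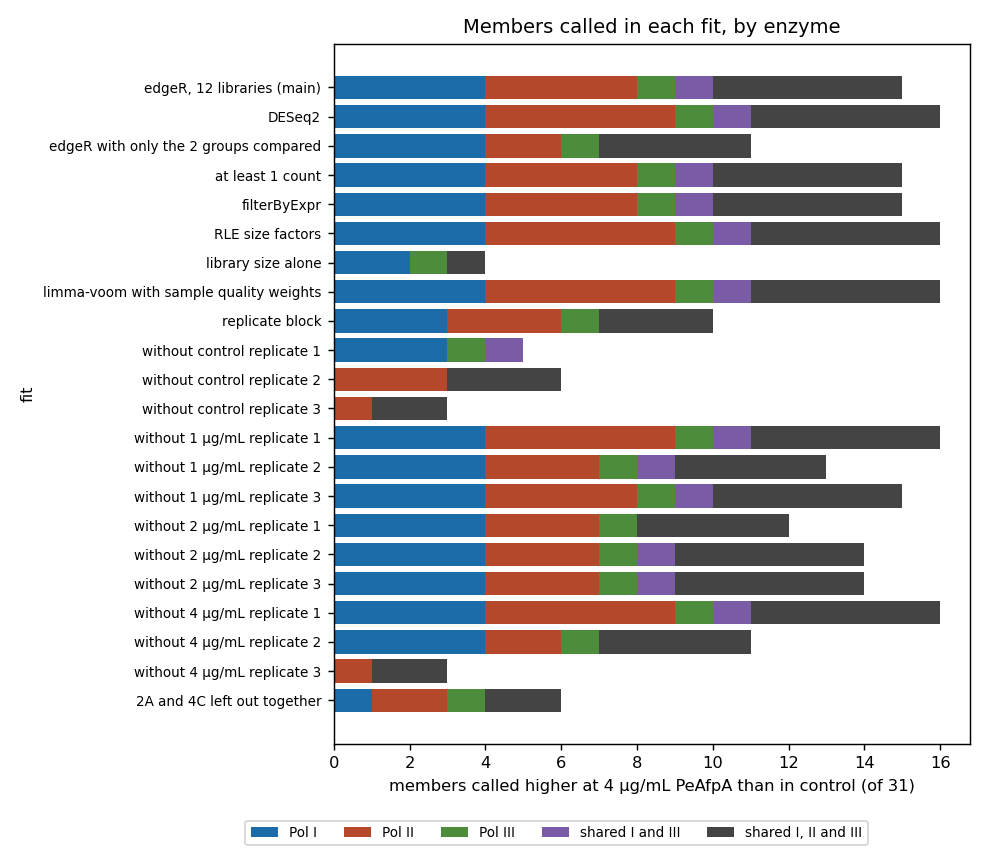
Number of members called higher at 4 µg/mL than in control (horizontal axis) in the main fit and 21 alternatives (rows), stacked by enzyme. The count lies between 3 and 16, and is lowest without 4 µg/mL replicate 3 (4C) and without control replicate 3 (1C).

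The 5 common subunits all rose at 4 µg/mL, each with its 3 libraries above the 3 controls. Values per library are scaled counts in CPM (counts relative to the TMM-scaled library total), and positions are those of the coding sequence in R64. RPB8 (YOR224C, chrXV:760825-761265, minus strand), one of the small core subunits, had 103, 128 and 176 CPM in 4A, 4B and 4C, against 70.1, 93.3 and 91.5 CPM in 1A, 1B and 1C (log2 fold change 0.68 ± 0.18 SE, adjusted p = 0.0124). RPB10 (YOR210W, chrXV:738320-738532, plus strand), a very small zinc-binding subunit next to the alpha-like pair, had 80.1, 89.3 and 93.3 CPM at 4 µg/mL, against 49.0, 64.5 and 53.4 CPM in the controls (0.65 ± 0.18, adjusted p = 0.0137). It was the common subunit with the closest agreement between the treated cultures. RPC10 (YHR143W-A, chrVIII:387233-387445, plus strand), another very small zinc-binding subunit, had 72.5, 77.8 and 114 CPM, against 51.9, 53.7 and 56.1 CPM (0.70 ± 0.23, adjusted p = 0.0249). RPO26 (YPR187W, chrXVI:911257-911800, plus strand), which contacts the clamp that closes over the DNA, had 165, 182 and 234 CPM, against 135, 148 and 130 CPM (0.49 ± 0.16, adjusted p = 0.0279). RPB5 (YBR154C, chrII:548362-549009, minus strand), part of the jaw that grips the downstream DNA, had 127, 142 and 161 CPM, against 116, 110 and 116 CPM (0.33 ± 0.11, adjusted p = 0.0358). RPB5 had the smallest rise of the 15 genes called. RPB10 was called in 20 of the 21 alternatives, RPB8 in 19, RPO26 and RPC10 in 15 and RPB5 in 10. Without 4C the changes were 0.25 for RPB5, 0.35 for RPO26, 0.46 for RPB8 and 0.50 for RPC10, each the lowest with any library left out, whereas RPB10 was lowest without 1A, at 0.57.

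The summed level of the common subunits was 547, 620 and 778 CPM in 4A, 4B and 4C, against 423, 470 and 447 CPM in 1A, 1B and 1C. It stayed between 402 and 500 CPM in the 6 libraries of the lower doses.

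**Figure D4:**
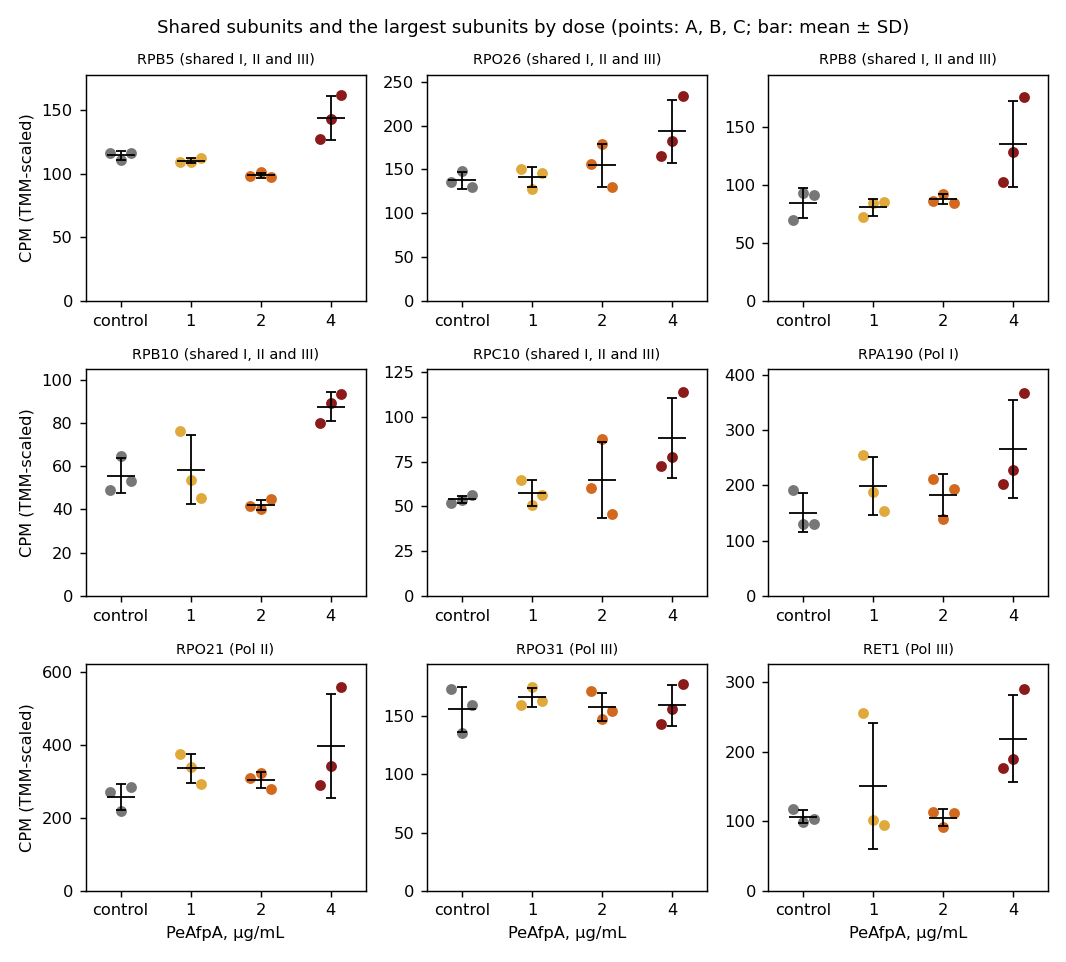
TMM-scaled level in CPM (vertical axes, from 0) of the 5 common subunits and of RPA190, RPO21, RPO31 and RET1 by PeAfpA concentration. Points are libraries A, B and C and the bars give the mean ± SD of 3. All 4 µg/mL points of the common subunits lie above the controls, RPO31 overlaps between all groups, and 1 library at 1 µg/mL (2A) has RET1 at 256 CPM.

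Among the Pol II subunits RPO21, RPB11, RPB4 and RPB9 rose. RPO21 (YDL140C, chrIV:205360-210561, minus strand), the largest subunit, which carries the repeated C-terminal tail, had 289, 344 and 559 CPM in 4A, 4B and 4C, against 270, 219 and 286 CPM in 1A, 1B and 1C (0.62 ± 0.23, adjusted p = 0.0436). The groups did not overlap, but 4A exceeded the highest control by little, and the change was 0.31 without 4C. RPO21 was called in 9 of 21 alternatives. RPB9 (YGL070C, chrVII:374459-374827, minus strand), a zinc-ribbon subunit that contributes to accurate transcription, had 42.3, 49.8 and 49.3 CPM, against 28.8, 32.3 and 31.1 CPM (0.62 ± 0.18, adjusted p = 0.0181). It was the only one of the 15 genes called whose highest level was not in 4C, and it was called in 18 of 21 alternatives. RPB11 (YOL005C, chrXV:315813-316175, minus strand), an alpha-like assembly subunit, had 109, 113 and 125 CPM, against 58.4, 94.2 and 75.5 CPM (0.60 ± 0.19, adjusted p = 0.0241). RPB4 (YJL140W, chrX:150961-151626, plus strand), a stalk subunit, rose by 0.62 ± 0.20 (adjusted p = 0.0283), but its range of 107 to 184 CPM at 4 µg/mL overlapped with that of 76.0 to 116 CPM in the controls. The partners of these genes were not called in this fit. RPB2, the second-largest subunit, had 246, 263 and 408 CPM, against 234, 186 and 227 CPM, with no overlap (0.50 ± 0.20, adjusted p = 0.0581), RPB3, the partner of RPB11, had 0.24 ± 0.13 (adjusted p = 0.172), and RPB7, the partner of RPB4, had 0.19 ± 0.14 (adjusted p = 0.287). RPB2 was called in 4 of 21 alternatives (DESeq2, RLE factors, without 2A and without 4A), RPB7 in 1 (limma-voom) and RPB3 in 0.

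Among the Pol I subunits both large subunits rose, and so did RPA34 and RPA12. RPA190 (YOR341W, chrXV:960987-965981, plus strand), the largest subunit, had 203, 228 and 367 CPM in 4A, 4B and 4C, against 191, 130 and 131 CPM in 1A, 1B and 1C (0.82 ± 0.27, adjusted p = 0.0276). RPA135 (YPR010C, chrXVI:577585-581196, minus strand), the second-largest subunit, had 280, 285 and 406 CPM, against 241, 167 and 176 CPM (0.74 ± 0.21, adjusted p = 0.0156). In both genes 1A was the highest control, and without 4C the changes were 0.53 and 0.56. RPA34 (YJL148W, chrX:140437-141138, plus strand), which with RPA49 forms a dimer that helps initiation and elongation, had 107, 123 and 174 CPM, against 96.3, 95.6 and 79.6 CPM (0.58 ± 0.19, adjusted p = 0.0257). RPA12 (YJR063W, chrX:555195-555572, plus strand), needed for cleavage of the nascent RNA, had 57.7, 64.9 and 91.0 CPM, against 50.2, 46.9 and 52.9 CPM (0.51 ± 0.17, adjusted p = 0.0321). In each of these 4 genes 4C was the highest of all 12 libraries. Without 4C the changes of RPA34 and RPA12 were 0.36 and 0.31, and none of the 4 was called. RPA135 was called in 18 of 21 alternatives, RPA190 in 17, RPA34 in 16 and RPA12 in 14. RPA49 (0.15 ± 0.14), the dimer partner of RPA34, and the stalk subunits RPA43 (0.26 ± 0.17) and RPA14 (0.11 ± 0.17) were not called, with adjusted p between 0.232 and 0.629, and their groups overlapped. RPA190 and RPA43 are divergent neighbours with 804 bases between them. Their count ratio was 3.23, 2.93 and 3.57 in 4A, 4B and 4C, against 2.74, 1.92 and 2.00 in 1A, 1B and 1C, and at the lower doses it was as high or higher in several libraries, with 4.90, 3.01 and 2.51 at 1 µg/mL (highest in 2A) and 3.46, 1.91 and 3.40 at 2 µg/mL.

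Of the alpha-like pair shared by Pol I and Pol III, RPC40 rose and RPC19 was not called. RPC40 (YPR110C, chrXVI:745828-746835, minus strand) had 183, 217 and 254 CPM in 4A, 4B and 4C, against 177, 151 and 163 CPM in 1A, 1B and 1C (0.41 ± 0.14, adjusted p = 0.0354), and it was called in 12 of 21 alternatives. RPC19 had 121, 132 and 142 CPM, against 136, 116 and 125 CPM (0.07 ± 0.16, adjusted p = 0.732). The 4A value of RPC40 was close to that of 1A, and the RPC19 groups overlapped.

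RET1 was the sole Pol III subunit that rose, and it had the largest change of the 31 genes in this fit. RET1 (YOR207C, chrXV:730008-733457, minus strand), the second-largest subunit, which forms the active site with RPO31 and acts in termination, had 176, 189 and 290 CPM in 4A, 4B and 4C, against 118, 99.5 and 103 CPM in 1A, 1B and 1C (1.03 ± 0.33, adjusted p = 0.0234). It was called in 18 of 21 alternatives, and its change was 0.79 without 4C. RPO31 (YOR116C, chrXV:539763-544145, minus strand), the largest subunit, had 143, 156 and 178 CPM, against 173, 135 and 159 CPM (0.03 ± 0.14, adjusted p = 0.873). The RPO31 groups overlapped, while those of its partner RET1 were separate. The trimer that recruits Pol III to its promoters had RPC82 at -0.06 ± 0.13 (adjusted p = 0.731), RPC34 at -0.35 ± 0.15 (adjusted p = 0.0835) and RPC31 at 0.14 ± 0.13 (adjusted p = 0.424). RPC31 was not called, although its 3 libraries at 4 µg/mL lay above all controls. RPC34 was the most negative member, with 41.7, 46.2 and 34.3 CPM, against 52.4, 58.8 and 45.0 CPM. The termination dimer had RPC53 at 0.20 ± 0.14 and RPC37 at -0.13 ± 0.15, and the stalk had RPC25 at -0.15 ± 0.22 and RPC17 at -0.01 ± 0.16. RPC11, which cleaves nascent RNA and acts in termination, had -0.05 ± 0.16. None of these 5 was called, with adjusted p between 0.258 and 0.983, and the signs of RPC25 and RPC17 changed between the fits.

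The level of RET1 was also high in a single library of 1 µg/mL. It had 256 CPM in 2A but 102 and 95.2 CPM in 2B and 2C, and 113, 91.0 and 111 CPM in 3A, 3B and 3C. The 2A value is 2.40 times the control mean and second only to 4C. In the same library RPA190 had 255 CPM, RPA135 304 CPM and RPO21 375 CPM, at 1.70, 1.56 and 1.45 times their control means, while RPC25 had 16.6 CPM, its lowest value. The labels do not set 2A apart from 2B and 2C. Without 2A and 4C together 6 members remained called at 4 µg/mL (RPB11, RPB9, RPB8, RPB10, RPA135 and RET1), which is 19.4% against 18.3% of all genes called higher. This alternative was chosen after seeing the data.

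Ratios of counts within a library do not depend on scaling between libraries. The ratio of RPA190 to RPO31, the largest subunits of Pol I and Pol III, was 1.41, 1.46 and 2.06 in 4A, 4B and 4C, against 1.11, 0.96 and 0.82 in 1A, 1B and 1C. That of RPO21 to RPO31 was 2.02, 2.20 and 3.15, against 1.56, 1.62 and 1.80. Both ratios were above all controls at 4 µg/mL, but lower doses reached into the same range. RPA190 to RPO31 was 1.60, 1.07 and 0.94 at 1 µg/mL, with 2A the highest, and 1.24, 0.95 and 1.26 at 2 µg/mL. RPO21 to RPO31 was 2.35, 1.95 and 1.80 at 1 µg/mL, again highest in 2A, and 1.81, 2.19 and 1.80 at 2 µg/mL. The ratios of the second-largest subunits to that of Pol III went the other way. RPA135 to RET1 was 1.59, 1.51 and 1.40 at 4 µg/mL, against 2.04, 1.68 and 1.72 in the controls, and RPB2 to RET1 was 1.39, 1.39 and 1.41, against 1.98, 1.87 and 2.22. In 2A these 2 ratios to RET1 were lower still, at 1.19 and 1.15. In the other lower-dose libraries they lay between 1.86 and 2.53. The ratio of RPA190 to RPO21 overlapped, with 0.70, 0.66 and 0.66, against 0.71, 0.59 and 0.46. Within Pol III the ratio of RET1 to RPO31 was 1.23, 1.21 and 1.63 at 4 µg/mL, against 0.68, 0.74 and 0.65 in the controls, and 1.60 in 2A. The corresponding ratios within Pol I (RPA190 to RPA135) and Pol II (RPO21 to RPB2) overlapped between the groups. Among the zinc-ribbon subunits RPB9 to RPC11 was 0.93, 1.14 and 1.12, against 0.64, 0.65 and 0.70, and RPA12 to RPC11 was 1.27, 1.48 and 2.06, against 1.12, 0.95 and 1.20. RPA12 to RPC11 was as high at 2 µg/mL in 3A and 3B, with 1.51 and 1.69, but 0.85 in 3C. RPB9 to RPC11 was 1.06 in 2A and between 0.67 and 0.76 in the other lower-dose libraries. For the stalk subunits RPA43, RPB7 and RPC25 all ratios overlapped. Of the other stalk subunits, RPB4 to RPC17 was 5.33, 6.19 and 9.11, against 4.54, 5.25 and 3.53, RPA14 to RPB4 was 0.54, 0.48 and 0.42, against 0.61, 0.55 and 0.91, and RPA14 to RPC17 overlapped. Of the alpha-like subunits RPC19 to RPB11 was 1.12, 1.17 and 1.14, against 2.33, 1.23 and 1.66, and RPC40 to RPB3 overlapped. RPC19 to RPB11 was also low at 2 µg/mL, with 1.13, 1.22 and 1.34, and was 1.44, 1.83 and 1.58 at 1 µg/mL. In 2A RPB4 to RPC17 was 6.19 and RPA14 to RPB4 was 0.366. In the other lower-dose libraries they lay between 3.91 and 4.85 and between 0.526 and 0.765. These ratios are descriptions without a test.

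**Figure D5:**
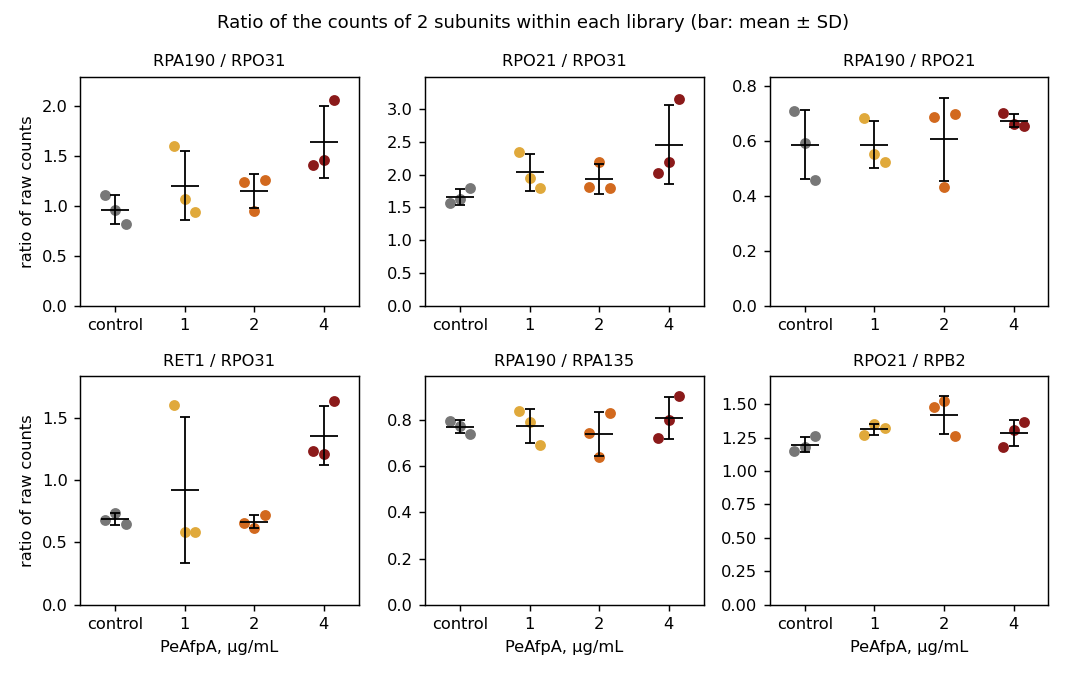
Ratio of the raw counts of 2 subunits within each library (vertical axes, from 0) by PeAfpA concentration, with the mean ± SD of 3 libraries. The 4 µg/mL points lie above the controls for RPA190 / RPO31, RPO21 / RPO31 and RET1 / RPO31, and overlap with them for RPA190 / RPO21, RPA190 / RPA135 and RPO21 / RPB2.

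Members with and without PAC were called at 4 µg/mL in different shares. Of the 16 members with PAC, 5 rose (31.2%), with a median log2 fold change of 0.14, and of the 15 without it 10 rose (66.7%), with a median of 0.51. Over all genes 18.0% of the 928 with PAC and 20.1% of the 4728 without it were called higher. RET1, RPO31, RPC82 and RPC34, whose windows are printed above, all belong to Pol III and hold GATGAG, and only RET1 was called among them. RRPE stood before 9 of the 15 members that rose and before 7 of the 16 that were not called. The split by PAC largely follows the enzyme. The 15 members without PAC include all 7 Pol II and all 5 common genes. Of the 16 members with it, 8 belong to Pol III. PAC and enzyme therefore cannot be told apart by these shares. The shares are descriptions without a test.

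At the lower doses no member was called. At 1 µg/mL and at 2 µg/mL, edgeR called 0 of the 31 genes and 0 of all 5903 (0%), and DESeq2 called 0 members, against 0.0508% and 0.576% of all genes. Unadjusted p-values were under 0.05 for 1 member at 1 µg/mL (RPC25, -0.49 ± 0.22) and for 2 at 2 µg/mL (RPB11, 0.43 ± 0.19, and RPB10, -0.40 ± 0.18), against 9.08% and 9.69% of all genes. The limma-voom fit with quality weights called 0 members at 1 µg/mL and 4 at 2 µg/mL, with RPB11 and RPC37 higher and RPB10 and RPC11 lower. These 4 are 12.9% of the members, against 21.7% of all genes called at 2 µg/mL in that fit. Median log2 fold changes over the members were 0.04 at 1 µg/mL and -0.01 at 2 µg/mL. Of the members 2 lay above all controls (RPO21 and RPC53) and 2 below (RPA43 and RPC11) at 1 µg/mL, against 7.54% and 8.50% of all genes. At 2 µg/mL 0 lay above and 3 below (RPB5, RPB10 and RPC34), against 8.67% and 9.22%. These comparisons share the control libraries with that at 4 µg/mL.

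Compared with 2 µg/mL, 8 members were higher at 4 µg/mL and 0 lower (15.4% of all genes were called higher and 18.8% lower, 34.2% together). The 4 µg/mL libraries lay above all at 2 µg/mL in 11 members and below in 1, against 24.4% and 28.0% of all genes, and 12 members and 46.9% of all genes had an unadjusted p under 0.05. The 8 genes were RPB9, RPB5, RPB8, RPB10, RPA34, RPA12, RPC40 and RET1, all of which also rose against the control, and both comparisons use the same 4 µg/mL libraries. RPB10 had 80.1, 89.3 and 93.3 CPM at 4 µg/mL, against 41.5, 40.1 and 44.6 CPM at 2 µg/mL (1.06 ± 0.18, adjusted p = 0.00229). The groups were far apart, since at 2 µg/mL RPB10 lay below every control. RPB5 had 127, 142 and 161 CPM, against 98.0, 101 and 97.2 CPM (0.54 ± 0.12, adjusted p = 0.00623), and at 2 µg/mL it too lay below every control. RPA34 had 107, 123 and 174 CPM, against 73.4, 63.6 and 87.0 CPM (0.85 ± 0.19, adjusted p = 0.00728). RPB9 had 42.3, 49.8 and 49.3 CPM, against 23.2, 25.3 and 32.7 CPM (0.80 ± 0.18, adjusted p = 0.00887). These 4 genes were called in all 21 alternatives of this comparison. RPB8 had 0.63 ± 0.18 (adjusted p = 0.0221), RPC40 0.52 ± 0.14 (adjusted p = 0.0183), RET1 1.06 ± 0.33 (adjusted p = 0.0275) and RPA12 0.53 ± 0.17 (adjusted p = 0.034), each with separate groups. Without 3A or without 4C 4 members were called (12.9%), against 7.23% and 5.76% of all genes called higher.

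RPC37, of the Pol III termination dimer, was the most negative member in both comparisons of 4 µg/mL with a lower dose. It had 111, 104 and 115 CPM at 4 µg/mL, against 151, 153 and 127 CPM at 2 µg/mL (-0.39 ± 0.15, adjusted p = 0.06) and 118, 158 and 167 CPM at 1 µg/mL (-0.43 ± 0.15, adjusted p = 0.051). The groups were separate in both comparisons, but neither passed the threshold in the main fit, and the controls lay at 131, 119 and 111 CPM. RPC37 was called lower against both doses with limma-voom, without 2A, without 3C and without 2A and 4C together, and against 1 µg/mL with DESeq2 (adjusted p = 0.0417).

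Compared with 1 µg/mL, 4 members were higher at 4 µg/mL and 0 lower (10.8% of all genes were called higher and 15.6% lower, 26.4% together). The 4 µg/mL libraries lay above all at 1 µg/mL in 13 members and below in 2, against 17.5% and 20.8% of all genes, and 13 members and 41.4% of all genes had an unadjusted p under 0.05. RPB8 had 103, 128 and 176 CPM at 4 µg/mL, against 72.6, 84.7 and 85.8 CPM at 1 µg/mL (0.74 ± 0.18, adjusted p = 0.0131). RPA34 had 107, 123 and 174 CPM, against 92.5, 87.9 and 74.0 CPM (0.67 ± 0.19, adjusted p = 0.0215). RPB5 had 127, 142 and 161 CPM, against 109, 109 and 112 CPM (0.38 ± 0.11, adjusted p = 0.0296), with the least spread among the lower-dose libraries. RPB10 had 80.1, 89.3 and 93.3 CPM, against 76.1, 53.8 and 45.2 CPM (0.59 ± 0.18, adjusted p = 0.0325), where 2A lay next to 4A. Without 2B, 2C or 4C 1 member was called higher (3.23%), against 2.29%, 2.81% and 3.95% of all genes, and without 4B 2 (6.45%), against 6.88%. Without 2A 8 members were called higher (25.8%), against 20.7% of all genes, without 3C 9 (29.0%), against 11.1%, and without 4A 11 (35.5%), against 13.3%. RPC37 was called lower without 2A and without 3C. When these groups alone were fitted 0 members were called, against 8.03% of all genes in either direction.

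Factors that work with these enzymes, in 6 lists of 45 genes chosen with earlier results known, had 2 genes that rose and 5 that fell at 4 µg/mL, where 19.3% of all genes were called higher and 23.0% lower. Of 9 Pol I initiation factors 1 rose at 4 µg/mL and 0 fell, with a median of -0.04. The gene that rose was RRN5, a subunit of the upstream activating factor of ribosomal DNA, with 29.1, 25.0 and 30.0 CPM in 4A, 4B and 4C, against 15.6, 15.2 and 17.2 CPM in 1A, 1B and 1C (0.81 ± 0.19, adjusted p = 0.00727). RRN3, which brings Pol I to its promoter, had 0.39 ± 0.19 (adjusted p = 0.12). Of 10 Pol III initiation factors and regulators 2 fell and 0 rose. BRF1, a subunit of the initiation factor TFIIIB, fell to 75.7, 78.1 and 62.0 CPM at 4 µg/mL, against 108, 115 and 120 CPM in the controls (-0.67 ± 0.17, adjusted p = 0.0104). TFC3, the largest subunit of TFIIIC, had 116, 110 and 71.2 CPM, against 138, 126 and 154 CPM (-0.49 ± 0.17, adjusted p = 0.0328). MAF1, the repressor of Pol III, had 0.14 ± 0.16 (adjusted p = 0.504).

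Of 8 assembly and import factors 3 fell and 0 rose, where 23.0% of all genes were called lower and 19.3% higher. IWR1, which carries assembled Pol II into the nucleus, had 110, 106 and 85.2 CPM in 4A, 4B and 4C, against 158, 180 and 149 CPM in 1A, 1B and 1C (-0.70 ± 0.16, adjusted p = 0.00626). RTR1, a phosphatase of the C-terminal tail that also takes part in the import of Pol II, had 30.2, 28.2 and 29.4 CPM, against 45.5, 47.1 and 47.0 CPM (-0.67 ± 0.15, adjusted p = 0.0054). GPN2, a GTPase needed for assembly, had 80.2, 69.2 and 61.0 CPM, against 89.6, 98.5 and 86.7 CPM (-0.39 ± 0.14, adjusted p = 0.0386). In all 3 genes the groups were separate. Of the 8 factors 3 lay below all controls and 1 above, against 31.7% and 27.5% of all genes. None of 11 Pol II elongation factors was called at 4 µg/mL against the control, with values between -0.10 and 0.29, and neither the mitochondrial RNA polymerase RPO41 (0.11 ± 0.16) nor its factor MTF1 (0.04 ± 0.15) was called. Of 5 genes for PAC and RRPE binders and growth regulators DOT6 rose (534, 518 and 566 CPM, against 381, 275 and 383 CPM, 0.64 ± 0.20, adjusted p = 0.0225), and TOD6 (0.46 ± 0.25), STB3 (-0.06 ± 0.16), SFP1 (0.09 ± 0.12) and SCH9 (-0.35 ± 0.21) were not called.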

How the data were processed

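RNA-seq counts were analysed for 12 libraries, 3 per condition. Per the study's methods, Trimmomatic 0.39 served for trimming the single-end reads, bowtie2 2.3.2 for mapping them to S288C (R64), and they were counted per gene with htseq-count 0.9.0. How the counting treated strand, overlaps and mapping quality is not given in the sources used here, and the library kit does not mark strand, so reads of overlapping genes could be misassigned. The authors deposited the raw counts without normalization. Of the 6600 features 5917 were matched to the annotation of the same assembly, and the other 683 held 0.172% to 0.323% of the counts. Genes with a mean of at least 1 TPM (1 CPM where no length was known) were kept, which left 5903 (length unknown for 247).

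TMM normalization was applied, and counts were tested in R 4.3.3 by edgeR 4.0.16 (quasi-likelihood F test), fitting the 4 groups together. P-values were adjusted by Benjamini-Hochberg over the 5903 genes. A standard error is |log2 fold change| over the root of F. The flasks are the replicates, 3 per group. The spread between cultures was estimated from all 12 libraries together, with information shared over genes. Libraries outside a comparison therefore also affect its p-values. CPM values are counts divided by the TMM-scaled library size. Counts were simulated for 4 µg/mL against control over 5903 genes. In these edgeR found 100% of the genes changed by 2 and 66% of those changed by 1 on the log2 scale. It made 10 false calls. The simulation changed few genes, equally many up and down, whereas 42.3% of genes were called in the data. It set no library apart as 4C and 2A were. The 15 members called had changes between 0.33 and 1.03, and the simulation does not cover changes smaller than 1. Alternatives were DESeq2 1.42.0, edgeR with 2 groups, a filter of 1 count, filterByExpr, RLE factors, voom with quality weights (limma 3.58.1), no TMM factor (library size alone), a replicate block, each library left out and, added after seeing the data, 2A and 4C left out together. Near-identical copies were searched with blastn 2.17.0 (95% identity over 100 bases). Members, lists, motifs and ratios were chosen with earlier results of these data known. All members are named; values per library are given for those called with separate groups, for catalytic subunits and for some others, chosen after seeing their values (RPB2, RPC19, RPC34, RPC37). From each list up to 4 genes called are named with values per library; list genes not called were chosen by role.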

Additional observations from a re-analysis of the deposited data

How the results depend on the processing

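The count of members called at 4 µg/mL against control (15) was 10 to 16 under DESeq2, edgeR with 2 groups, both other filters, RLE factors, limma-voom and the replicate block, 4 with library size alone, 6 without 2A and 4C together, and 3 to 16 with each library left out, and 0 members were called lower in any of these fits. The fits named first called 32.3% to 51.6% of the members higher, against 17.0% to 26.7% of all genes. Library size alone called 12.9% of the members, against 12.8% of all genes, and leaving out 2A and 4C 19.4%, against 18.3%. With each library left out the shares were 9.68% to 51.6% of the members, against 11.2% to 22.6% of all genes called higher. At 2 µg/mL against control limma-voom called 4 (12.9% of the members, against 21.7% of all genes) and the other alternatives 0, and at 1 µg/mL every alternative called 0. Against 2 µg/mL (8) the count was 5 with library size alone, 15 with limma-voom (RPC37 lower) and 4 to 11 with each library left out. In either direction these were 16.1%, 48.4% and 12.9% to 35.5% of the members, against 28.2%, 58.6% and 15.4% to 42.1% of all genes. Called higher with limma-voom were 45.2% of the members and 28.0% of all genes. Against 1 µg/mL (4) the count was 12 with DESeq2 (RPC37 lower), 0 with 2 groups, 7 with RLE factors, 18 with limma-voom (RPC37 and RPC82 lower) and 1 to 11 with each library left out. In the same order these were 38.7%, 0%, 22.6%, 58.1% and 3.23% to 35.5% of the members. The shares of all genes called in either direction were 33.5%, 8.03%, 26.6%, 61.6% and 10.0% to 42.8%. Called higher with limma-voom were 51.6% of the members and 29.7% of all genes. The cause of the differences between fits was not tested, except that library size alone shifts the median of all genes to -0.23.

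The titles number the replicates in each group but do not say whether same-numbered libraries were handled together. The main fit did not pair them. Over 18 pairs the correlation of their deviations from the group means lay between -0.365 and 0.25, and 6 exceeded 0.1. These values have no reference to compare with and cannot decide whether the libraries are paired. With the replicate number as a block 10 members were called against control, 7 against 2 µg/mL and 2 against 1 µg/mL. These were 32.3%, 22.6% and 6.45% of the members, all higher, against 17.0%, 11.9% and 7.98% of all genes called higher. In either direction 37.6%, 27.6% and 20.3% of all genes were called.

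The members whose sign at 4 µg/mL against control changed were not called in any of those fits. With library size alone RPB7 had -0.003, RPA49 -0.059, RPA14 -0.099, RPC19 -0.133, RPO31 -0.18 and RPC31 -0.06. With limma-voom RPO31 had -0.034, RPC25 0.052 and RPC17 0.083, and RPC17 had 0.034 with DESeq2 and 0.032 with RLE factors. Without 2A and 4C together RPO31 had -0.041 and RPC17 0.041. With each library left out RPO31 lay between -0.063 and 0.112, RPC82 between -0.161 and 0.001, RPC25 between -0.311 and 0.038 and RPC17 between -0.071 and 0.041. Every member had at least 134 counts in each library.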

Other observations

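DOT6, RRN5 and RTR1, called at 4 µg/mL, had separate groups at 2 µg/mL too, without passing the threshold. Of the 45 list genes 3 lay above all controls at 2 µg/mL and 3 below, against 8.67% and 9.22% of all genes. DOT6 had 657, 500 and 456 CPM at 1 µg/mL and 578, 575 and 469 CPM at 2 µg/mL, against 381, 275 and 383 CPM in the controls, so that both groups lay above the controls (log2 fold changes 0.63 ± 0.20 and 0.64 ± 0.20, adjusted p = 0.491 and 0.413 by edgeR). At 4 µg/mL it had 0.64 ± 0.20 as well. RRN5 had 24.7, 30.1 and 20.0 CPM at 2 µg/mL, against 15.6, 15.2 and 17.2 CPM in the controls (0.64 ± 0.19, adjusted p = 0.406). RTR1 lay below every control at 1 and 2 µg/mL (-0.36 ± 0.15 and -0.43 ± 0.15, adjusted p = 0.505 and 0.434 by edgeR). These genes were chosen after their values were seen.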
